A study of Mus musculus with 24 samples.

Results

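The genes described here encode receptors for glutamate and for GABA, the main excitatory and inhibitory transmitters of the brain. They were listed by name, as 23 glutamate receptor genes and 9 GABA-A receptor genes, and all 32 were found among 22208 protein-coding genes of an annotation of mm9, the mouse genome build of the region lists. Immortalized dermal fibroblasts, cultured mouse skin cells, were compared as WT cells and as separate KO cells for Tmpo. The KO cells lack LAP2alpha, a product of that gene that stays in the nuclear interior and binds A-type lamins. Chromatin immunoprecipitation sequencing after 12 or 30 cycles of sonication used antibodies to LAP2alpha and lamin B1 in WT alone, and to lamin A/C in both genotypes, namely N18, raised to its N terminus, and 3A6, raised to its C-terminal fold. This gave 8 WT and 4 KO libraries. No other treatment distinguished the groups, and each of the 12 groups analysed was 1 library, so no spread between replicates can be given and none of the differences below was tested. Reads inside the deposited islands ranged from 3989494 to 13601739 per library, a sum that is not a sequencing depth. WT and KO were called against their own inputs, both lamin A/C antibodies against the same ones, and lamin A/C and LAP2alpha libraries of 12 and 30 cycles came from different flow cells. For them the effects of shearing and of the sequencing run cannot be told apart, whereas the lamin B1 libraries shared a lane. At each sonication the LAP2alpha, lamin A/C and lamin B1 libraries also came from different flow cells. Differences between these proteins therefore cannot be told apart from the sequencing run.

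AMPA, kainate and NMDA receptors are ion channels that open when glutamate binds, delta receptors are their relatives that act mainly as adhesion molecules of the synapse, and metabotropic receptors signal through G proteins. GABA-A receptors are chloride channels built from alpha, beta, gamma or delta subunits, and several of their genes lie side by side on the chromosomes. In skin fibroblasts these genes are thought to be silent, which the region lists do not measure, and silent neuronal genes are among those often found at the nuclear lamina, the meshwork of lamins under the nuclear envelope where lamin B1 resides.

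Sequences before the gene starts are shown for the longest gene of each pattern described below, with CG dinucleotides in capitals. All are 250 bases of mm9 written 5′ to 3′ on the gene's strand. They stand for a gene inside domains of every library (Grin2b, chr6:136123530-136123779, minus strand), a gene inside none (Gria1, chr11:56824639-56824888, plus strand), a gene whose lamin A/C domain at 30 cycles was absent in KO with both antibodies (Grm7, chr6:110595325-110595574, plus strand) and a gene that went in opposite directions at the 2 sonications (Grm4, chr17:27650287-27650536, minus strand).
Grin2b: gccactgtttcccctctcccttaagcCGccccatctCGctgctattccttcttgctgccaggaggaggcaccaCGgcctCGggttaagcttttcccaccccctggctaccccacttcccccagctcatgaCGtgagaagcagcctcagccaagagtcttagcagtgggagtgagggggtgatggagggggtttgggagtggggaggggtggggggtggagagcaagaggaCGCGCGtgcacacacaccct
Gria1: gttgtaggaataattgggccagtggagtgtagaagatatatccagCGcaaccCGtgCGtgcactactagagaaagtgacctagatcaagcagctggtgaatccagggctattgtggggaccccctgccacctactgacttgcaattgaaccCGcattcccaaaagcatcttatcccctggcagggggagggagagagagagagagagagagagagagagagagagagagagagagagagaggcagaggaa
Grm7: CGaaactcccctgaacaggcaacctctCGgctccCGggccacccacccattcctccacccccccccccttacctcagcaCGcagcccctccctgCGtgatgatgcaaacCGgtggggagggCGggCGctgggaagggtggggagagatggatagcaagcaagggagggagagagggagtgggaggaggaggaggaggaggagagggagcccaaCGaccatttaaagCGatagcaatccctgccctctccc
Grm4: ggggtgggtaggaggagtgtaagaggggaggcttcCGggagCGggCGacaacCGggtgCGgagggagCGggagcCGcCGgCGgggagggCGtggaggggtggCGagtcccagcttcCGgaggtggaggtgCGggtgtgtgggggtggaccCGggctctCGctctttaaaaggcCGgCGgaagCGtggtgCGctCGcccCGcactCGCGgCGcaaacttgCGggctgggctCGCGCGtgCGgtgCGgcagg
The Grm4 window held 30 CG dinucleotides at 73.6% G+C, against 8 for Grin2b, 10 for Grm7 and 4 for Gria1, whose window ends in a run of GA repeats. Over the 32 genes the median was 14 CG dinucleotides and 61.4% G+C in the same window, against 8 and 54% over all genes. SICER islands, the short enriched regions of the second caller, touched the stretch from 2200 bp before to 500 bp past the start of Grin2b in 10 libraries, of Grm4 in 7, of Grm7 in 2 (both lamin B1) and of Gria1 in none. Islands touched this stretch for 1 to 6 of the 32 genes per library, against 4.65% to 18.1% of all genes, and for 19 of the 32 in no library (54.8% of all genes).

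The binding motif of REST, a repressor of neuronal genes, was searched in the same stretch as its parts CAGCACC and GGACAG with 2 bases between them, on both strands. Only Grin1 held it, in a non-coding part of an exon 155 bp past the annotated start (chr2:25174538-25174552, minus strand, the strand of the gene), against 0.207% of all genes. The capitals mark the searched parts.
Grin1: CAGCACCtcGGACAG

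Most of the receptor genes lay in one of 2 kinds of domain. The 2 kinds came from libraries that differed in antibody, sonication and flow cell, effects that cannot be told apart. EDD domains are broad enriched regions called in bins of 11 kb, and a gene with 50% or more of its length covered was counted as inside. The 12-cycle LAP2alpha domains, without the 30-cycle lamin B1 domains, held 11 of the 32 genes (34.1% of all genes). The 30-cycle lamin B1 domains, without the 12-cycle LAP2alpha ones, held 16 (14.9% of all genes), 2 genes lay in both (1.86% of all genes) and 3 in neither (49.2% of all genes). By receptor family, lamin B1 alone held 8 of 9 GABA-A genes, 4 of 7 metabotropic genes, 2 of 5 kainate genes, 1 of 7 NMDA genes and 1 of 3 AMPA genes. LAP2alpha alone held 4 NMDA, 3 kainate and 3 metabotropic genes and a single GABA-A gene. Of the 384 values of coverage, 236 were 0%, 121 were 100% and 27 from 12 genes lay between.

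**Figure D1:**
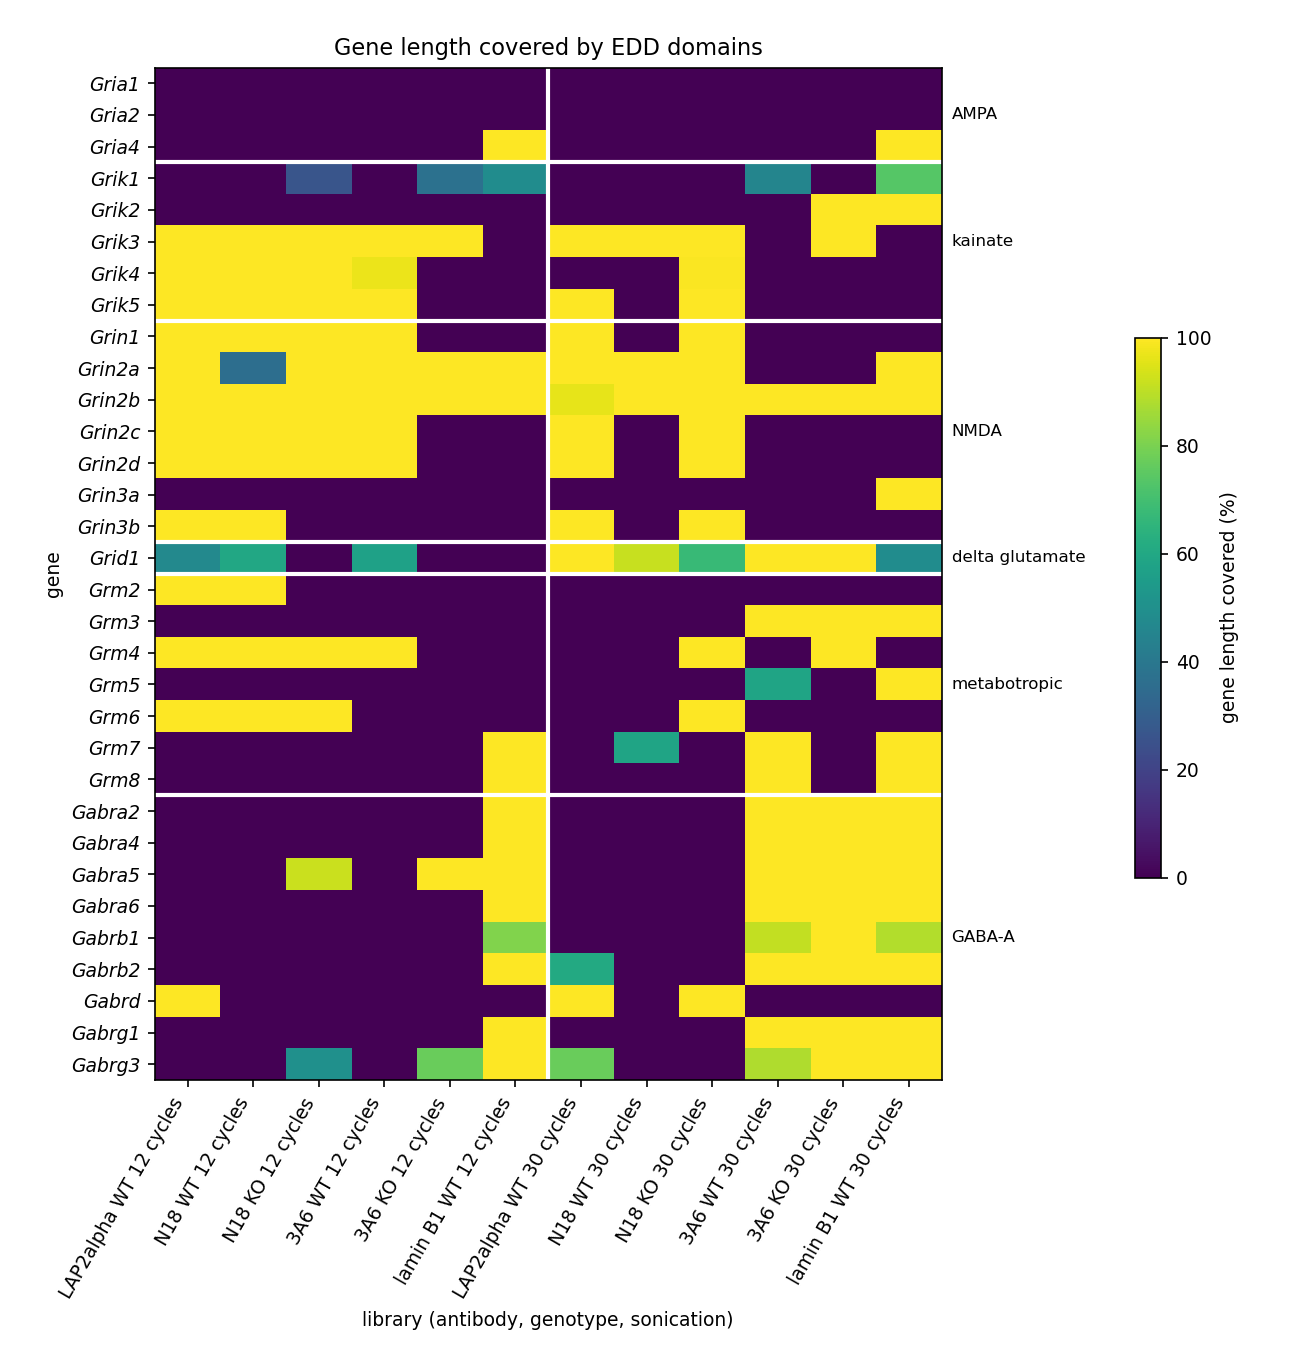
Percent of gene length covered by EDD domains (color, 0% to 100%) for the 32 receptor genes (rows, by family) in the 12 libraries (columns, 12 cycles left and 30 cycles right of the white line), 1 library per column. GABA-A genes are covered mainly in the lamin B1 and 30-cycle 3A6 columns, and Grin2b in all 12. Most NMDA and some kainate genes are covered in the LAP2alpha, 12-cycle N18, 12-cycle 3A6 WT and 30-cycle N18 KO columns.

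The genes of these 2 kinds also differed in length, base composition and surroundings. Those of LAP2alpha alone had a median length of 28 kb, a G+C content from 48% to 58.6% and a median of 59 other genes within 1 Mb of their start. Those of lamin B1 alone had a median length of 309 kb, a G+C content from 35.6% to 40.6% and a median of 5.5 other genes within 1 Mb. The G+C ranges of the 2 sets did not overlap, and Grin2a (43.5%), Grin2b (43.4%), Grid1 (43.4%) and Gria1 (44.7%) lay between them. All genes divided in the same way had medians of 50% G+C, 13.9 kb and 41 other genes within 1 Mb for LAP2alpha alone. For lamin B1 alone the medians were 40.7% G+C, 6.21 kb and 22 other genes. Over all genes the G+C ranges overlapped, from 35% to 76.5% for LAP2alpha alone and from 28.6% to 74.8% for lamin B1 alone. Receptor genes were long, with a median of 198 kb against 15.5 kb, and 20 of 32 reached 100 kb (10.8% of all genes). Across the 32 genes coverage by LAP2alpha at 12 cycles rose with G+C content (Spearman's rho 0.848, against 0.488 over all 22208 genes) and coverage by lamin B1 at 30 cycles fell with it (rho -0.77, against -0.355). These are descriptions without a p, since neighbouring genes share domains and base composition and the 32 genes lay in 27 neighbourhoods at least 1 Mb apart on 12 chromosomes.

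**Figure D2:**
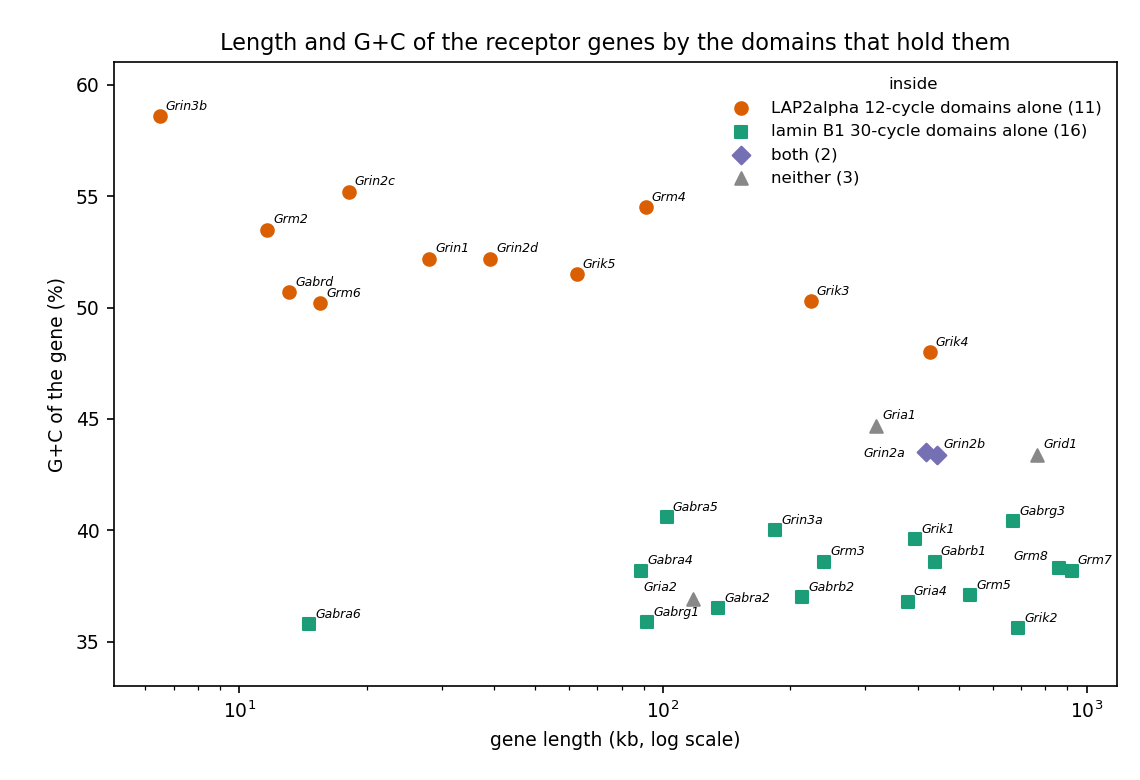
Gene length (horizontal, kb, log scale) and G+C content of the gene (vertical, percent) of the 32 receptor genes, with color and shape for the 12-cycle LAP2alpha and 30-cycle lamin B1 domains that held them. The 11 genes of LAP2alpha alone sit at 48% G+C or more and the 16 of lamin B1 alone at 40.6% or less, and no length separates them.

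Counted library by library, the share of receptor genes stood furthest above that of all genes in the lamin B1 libraries and the 30-cycle 3A6 libraries, by 31.2 to 39.5 percentage points, and by at most 14.4 in the other 8. In each lamin B1 and 30-cycle 3A6 library, 8 of the receptor genes inside were GABA-A genes. These lie in neighbouring groups that share domains, so they are not separate observations. Lamin B1 held 13 of 32 at 12 cycles (7.78% of all genes) and 18 at 30 cycles (16.8%). LAP2alpha held 13 at 12 cycles (35.9%) and 12 at 30 cycles (32.3%), shares near those of all genes. In WT N18 held 12 at 12 cycles (27.4%) and 5 at 30 cycles (5.89%), and 3A6 held 10 (21.1%) and 14 (9.4%). KO libraries held 12 with N18 at 12 cycles (23.1%), 13 with N18 at 30 cycles (28.5%), 5 with 3A6 at 12 cycles (10.7%) and 14 with 3A6 at 30 cycles (12.6%). Among the 2397 genes of at least 100 kb, 8.84% and 20.9% lay in the 12- and 30-cycle lamin B1 domains, 22.5% and 28.2% in those of LAP2alpha, 18% and 8.97% in those of N18 WT and 17.6% and 11.3% in those of 3A6 WT. In KO the shares of these long genes were 18.2% and 20.4% with N18 and 13% and 13.9% with 3A6 at 12 and 30 cycles.

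**Figure D3:**
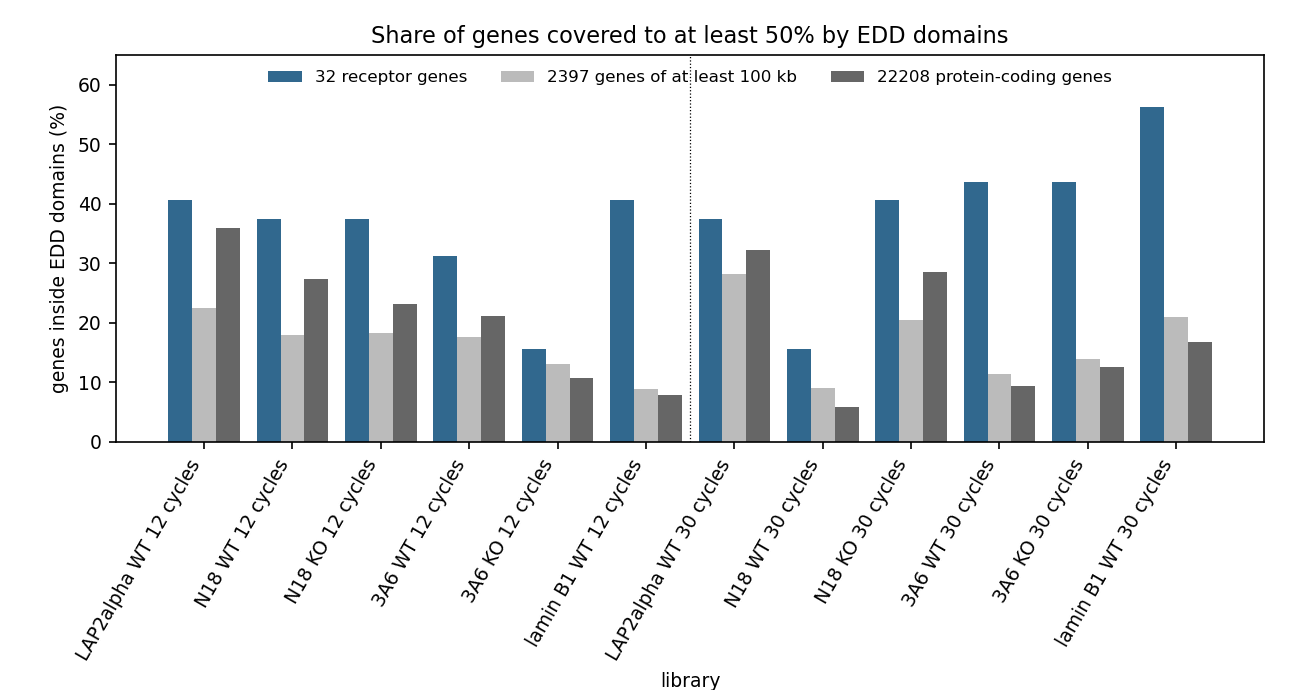
Percent of genes inside EDD domains (vertical) in each of the 12 libraries (horizontal), for the 32 receptor genes, for genes of at least 100 kb and for all protein-coding genes, with 1 library per set of bars and no error bars. The blue bars of lamin B1 and of 30-cycle 3A6 stand well above both gray ones, while those of LAP2alpha lie near the bar of all genes.

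Of the AMPA receptor genes, Gria1 and Gria2 were inside in no library. Gria1 (chr11:56824889-57143746, plus strand) and Gria2 (chr3:80488858-80606713, minus strand), whose RNA is edited so that its subunit limits calcium entry, both had 0% in all 12 libraries. To the nearest domain Gria1 had 144 kb with LAP2alpha at 30 cycles, 782 kb with LAP2alpha at 12 cycles and up to 8548 kb with lamin B1 at 12 cycles. Gria2 had 1189 kb to the nearest 30-cycle lamin B1 domain. Among all genes 32.9% were inside in no library. Gria4, which encodes another subunit of these channels, was covered to 100% by lamin B1 at both sonications and to 0% in the other 10 libraries. At 30 cycles its lamin B1 domain spanned 10.2 Mb with 53 genes. SICER islands nevertheless held 59.5% of Gria2 with lamin B1 and 15.9% with 3A6 WT at 30 cycles, so that EDD and SICER differed at this gene. Islands of these libraries covered 17.6% and 14.4% of its chromosome 3.

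Kainate receptor genes fell on both sides. Grik3 (chr4:125167944-125391417, plus strand), a principal subunit, had 100% in all LAP2alpha and N18 libraries, in 3A6 WT and KO at 12 cycles and in 3A6 KO at 30 cycles, and 0% in 3A6 WT at 30 cycles and in both lamin B1 libraries. It was thus inside in 9 of 12 libraries, as were 2.08% of all genes in at least that many. Grik4 and Grik5 encode the high-affinity subunits that form channels only with a principal partner. Both had 97% to 100% in LAP2alpha, N18 WT and KO and 3A6 WT at 12 cycles and 99.6% to 100% in N18 KO at 30 cycles, and Grik5 also had 100% in LAP2alpha at 30 cycles, with 0% elsewhere. Grik1 and Grik2, principal subunits like Grik3, lay on the lamin B1 side. Grik2 had 100% with lamin B1 and with 3A6 KO at 30 cycles and 0% elsewhere, while Grik1 was covered only over its first part, as described with the split genes.

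NMDA receptor genes were mostly on the LAP2alpha side. Grin2b (chr6:135679844-136123529, minus strand), which encodes the glutamate-binding subunit that prevails early in development, had 100% in 11 libraries and 96.4% in LAP2alpha at 30 cycles. It was the 1 receptor gene inside in all 12 libraries, which 38 of all genes were (0.171%). Its domain was short in every library, from 0.737 to 1.1 Mb with 1 to 4 genes inside. Grin2a (chr16:9577803-9995014, minus strand), the subunit that prevails in the adult brain, had 100% in 9 libraries, 36% in N18 WT at 12 cycles and 0% in 3A6 WT and KO at 30 cycles. Domains around Grin2a changed in length far more, from 0.825 Mb with lamin B1 at 30 cycles to 11 Mb with N18 KO at 12 cycles.

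Grin1, the glycine-binding subunit that every NMDA receptor needs, and the glutamate-binding subunits Grin2c and Grin2d shared 1 profile on 3 chromosomes. Each had 100% in LAP2alpha at both sonications, in N18 WT and KO and 3A6 WT at 12 cycles and in N18 KO at 30 cycles, and 0% in the other 6 libraries. Grik5 had this profile too. Of the glycine-binding relatives, Grin3b (chr10:79433460-79439935, plus strand) had 100% in LAP2alpha at both sonications, N18 WT at 12 cycles and N18 KO at 30 cycles and 0% in the other 8, and Grin3a had 100% with lamin B1 at 30 cycles alone. The 12-cycle LAP2alpha domain of Grin1 spanned 9.54 Mb with 227 genes, that of Grin2c 8.21 Mb with 202, that of Grin3b 6.64 Mb with 225 and that of Grin2d 3.43 Mb with 157, whereas the lamin B1 domain of Grin3a spanned 2.57 Mb with 13.

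Metabotropic receptor genes fell on both sides within the same signalling group. Of the group II receptors, which lower cyclic AMP and damp transmitter release, Grm2 had 100% in LAP2alpha and N18 WT at 12 cycles and 0% in the other 10 libraries, and Grm3 had 100% with lamin B1 and both 3A6 libraries at 30 cycles and 0% in the other 9. Of the group III receptors, Grm6, the receptor of retinal ON bipolar cells, had 100% in LAP2alpha, N18 WT and N18 KO at 12 cycles and in N18 KO at 30 cycles. Grm4 (chr17:27559332-27650286, minus strand), a presynaptic receptor, had 100% in LAP2alpha, N18 WT, N18 KO and 3A6 WT at 12 cycles and in N18 KO and 3A6 KO at 30 cycles and 0% in the other 6. Grm7 (chr6:110595575-111517224, plus strand), the longest gene of the set at 922 kb with no other gene within 1 Mb of its start, had 100% with lamin B1 at both sonications and with 3A6 WT at 30 cycles, 58.4% in N18 WT at 30 cycles and 0% in the other 8. Grm8 had 99.7% and 100% with lamin B1 at 12 and 30 cycles and 100% with 3A6 WT at 30 cycles. Grm5, of group I, which raises calcium, had 100% with lamin B1 and 58.4% with 3A6 WT at 30 cycles.

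GABA-A receptor genes formed the most uniform family. Gabrg1, Gabra2, Gabra4 and Gabrb1 follow each other on chromosome 5, with gaps of 118, 474 and 41.6 kb, and were held together by 1 domain in each of 4 libraries: lamin B1 at 12 cycles (2.45 Mb), lamin B1 at 30 cycles (4.64 Mb), 3A6 WT at 30 cycles (4.38 Mb) and 3A6 KO at 30 cycles (5.12 Mb). Coverage was 100% for the first 3 and 80.9% to 100% for Gabrb1, and 0% in the other 8 libraries. Gabra6, a subunit of cerebellar granule cells, and its neighbour Gabrb2 had 100% in the same 4 libraries, and Gabrb2 also had 60.7% in LAP2alpha at 30 cycles. Because neighbours share domains, these 6 genes are 2 places and not 6 separate observations.

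Gabrg3 (chr7:63971835-64642558, minus strand) and Gabra5 (chr7:64663060-64765379, minus strand), 20.5 kb apart, encode a gamma subunit and an alpha subunit of receptors outside the synapse. Gabrg3 had 100% with lamin B1 at both sonications and with 3A6 KO at 30 cycles, 87.9% in 3A6 WT at 30 cycles, 77.1% in LAP2alpha at 30 cycles, 77% in 3A6 KO and 50.2% in N18 KO at 12 cycles, and 0% in the other 5. Gabra5 had 100% with lamin B1 at both sonications, in 3A6 WT and KO at 30 cycles and in 3A6 KO at 12 cycles, 91.8% in N18 KO at 12 cycles and 0% in the other 6. At 12 cycles both genes were thus covered by lamin A/C domains in KO and by none in WT. Gabrd, whose subunit takes the place of gamma in extrasynaptic receptors, was the exception of the family, with 100% in LAP2alpha at both sonications and in N18 KO at 30 cycles and 0% elsewhere.

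Domain borders crossed 12 of the 32 genes in at least 1 library (7.59% of all genes), with 29 edges of which 27 lay in introns and 2 in exons. All 12 were among the 20 receptor genes of at least 100 kb, while 27.4% of all genes of that length were crossed. Grid1 (chr14:35633011-36396565, plus strand), which encodes a delta receptor, was covered over its first part by LAP2alpha (47%), N18 WT (60%) and 3A6 WT (57.1%) at 12 cycles and by N18 WT (91.7%) and N18 KO (67.2%) at 30 cycles. Lamin B1 at 30 cycles covered the opposite end, 48.7%. The 12-cycle LAP2alpha domain ended 33 kb, or 3 EDD bins, before the lamin B1 domain began, and it was the 1 edge of 5 to leave a gap. The others ran past the start of the lamin B1 domain, so that the distance left before it was -66 kb for N18 WT and -44 kb for 3A6 WT at 12 cycles, and -308 kb for N18 WT and -121 kb for N18 KO at 30 cycles. The 30-cycle LAP2alpha, 3A6 WT and 3A6 KO libraries had 100%, and N18 KO, 3A6 KO and lamin B1 at 12 cycles 0%. Grid1 was counted in neither kind of domain since its 47% and 48.7% fell just short of the limit. Just above it were Gabrg3 in N18 KO at 12 cycles (50.2%), Grid1 in 3A6 WT at 12 cycles (57.1%), Grm5 in 3A6 WT and Grm7 in N18 WT at 30 cycles (58.4% each), and just below it Grik1 with lamin B1 at 12 cycles (48.5%) and with 3A6 WT at 30 cycles (45.7%).

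In 5 libraries a domain edge crossed Grik1 (chr16:87896441-88289947, minus strand), always with the start of the gene covered. It had 26.2% in N18 KO, 37.3% in 3A6 KO and 48.5% with lamin B1 at 12 cycles, 45.7% in 3A6 WT and 73.7% with lamin B1 at 30 cycles, and 0% in the other 7. Edges lay from 103 to 290 kb past its start. The edges in Gabrb1 were closer together, at 355, 388 and 399 kb past the start for lamin B1 at 12 cycles, lamin B1 at 30 cycles and 3A6 WT at 30 cycles, 44 kb or 4 bins apart at most.

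**Figure D4:**
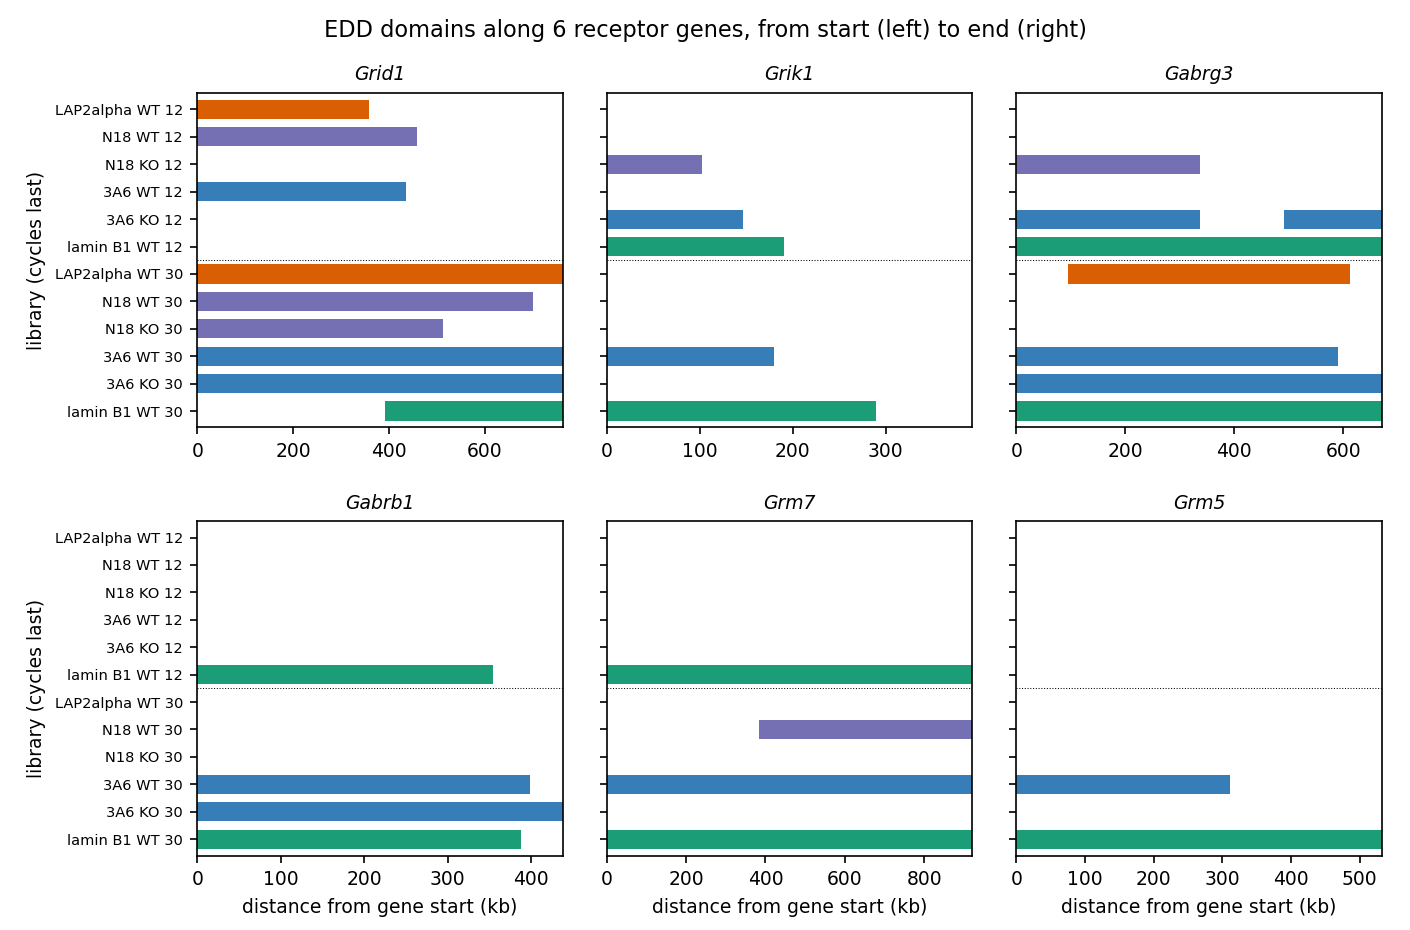
EDD domains (bars) along 6 receptor genes, from the gene start at 0 to its end (horizontal, kb), in the 12 libraries (rows, 12 cycles above the dotted line), orange for LAP2alpha, violet for N18, blue for 3A6 and green for lamin B1. In Grid1 the 12-cycle bars of LAP2alpha, N18 WT and 3A6 WT cover the first part and the 30-cycle lamin B1 bar the last part, which the N18 WT and 3A6 WT bars run into, and in Grik1 all 5 bars begin at the gene start.

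The comparison of WT with KO asked where lamin A/C lies without LAP2alpha. Since each genotype was called against its own input, losses and gains of lamin A/C cannot be told apart from differences between the inputs. Nor can they be told apart from other differences between the WT and KO cells. At 12 cycles 3A6 domains lost 7 receptor genes in KO (15.4% of all genes), namely Grin1, Grin2c, Grin2d, Grik4, Grik5, Grm4 and Grid1, and gained Gabrg3 and Gabra5 (5% of all genes). N18 lost Grm2, Grin3b and Grid1 (11.9% of all genes) and gained Gabrg3, Gabra5 and Grin2a (7.64%). At 30 cycles N18 gained 9, namely Grin1, Grin2c, Grin2d, Grin3b, Grik4, Grik5, Grm4, Grm6 and Gabrd (24.4% of all genes), and lost Grm7 (1.76%). Domains of N18 WT at 30 cycles summed to 239 Mb, the least of any library, against 472 Mb in N18 KO. The part of these totals in the gains was not tested. With 3A6 at 30 cycles Grm5, Grm7 and Grm8 were lost (5.75%) and Grik2, Grik3 and Grm4 gained (8.94%). Kept in KO at 12 cycles were 9 genes with N18 (15.5% of all genes) and 3 with 3A6 (5.7%). At 30 cycles 4 were kept with N18 (4.13%) and 11 with 3A6 (3.65%). The kept genes at 30 cycles with 3A6 stood furthest above the share of all genes, while the lost and gained genes were near it. Of these 11 kept genes, Gabrg1, Gabra2, Gabra4 and Gabrb1 shared 1 domain. The neighbours Gabrg3 and Gabra5 shared another, and so did Gabra6 and Gabrb2. The 11 genes are therefore not 11 separate observations.

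The largest set of gains and the largest set of losses fell mostly on genes of LAP2alpha alone, as they did over the genome. Of the 3 genes lost with N18 at 12 cycles and the 3 gained with 3A6 at 30 cycles, 2 each were of that kind. No gene gained at 12 cycles or lost at 30 cycles, with either antibody, was. For these smaller sets the share over all genes was not computed. All 9 genes gained with N18 at 30 cycles (81.3% of all genes gained) and 6 of the 7 lost with 3A6 at 12 cycles (91.9% of all genes lost) were of that kind, and 6 genes did both (Grin1, Grin2c, Grin2d, Grik4, Grik5 and Grm4, 10.7% of all genes). Each of the 11 genes of LAP2alpha alone changed in at least 1 of the 4 comparisons (82.9% of all genes of that kind), 7 of them in both directions (39.1%). Of the 16 genes of lamin B1 alone 10 changed in none (40.7% of all genes of that kind), among them the 4 GABA-A genes of chromosome 5, Gabra6 and Gabrb2, and the 3 lost with 3A6 at 30 cycles were metabotropic. Grin2b was kept in all 4 comparisons.

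**Figure D5:**
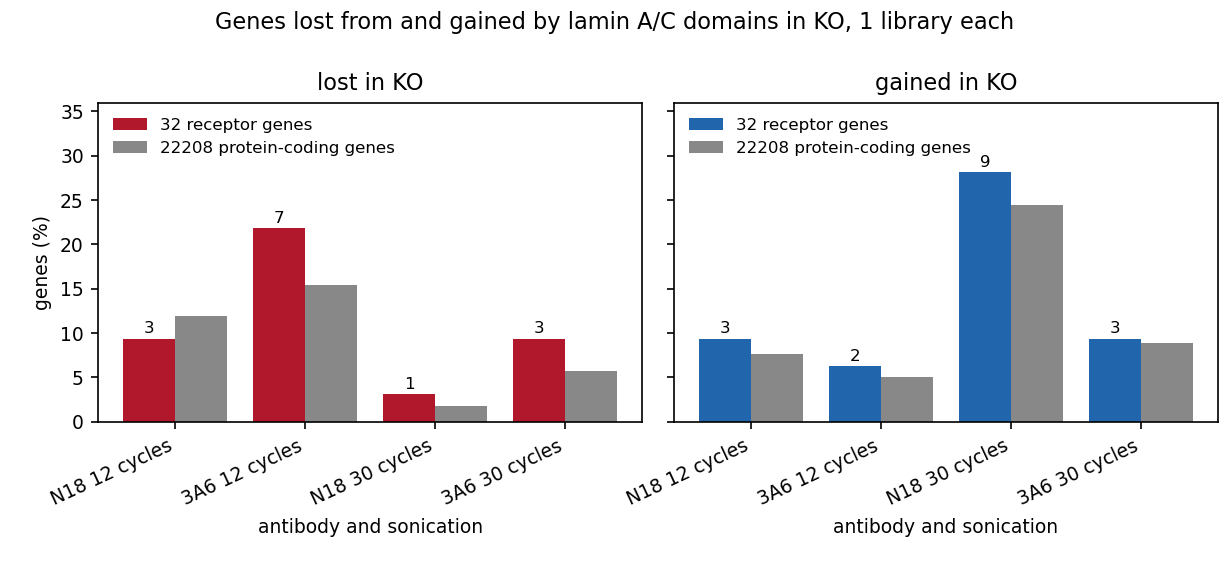
Percent of genes lost from (left, red) and gained by (right, blue) lamin A/C domains in KO for the 32 receptor genes, with gene counts above the bars, and for all protein-coding genes (gray), by antibody and sonication (horizontal), 1 WT and 1 KO library per comparison. The highest bars are the 7 genes lost with 3A6 at 12 cycles and the 9 gained with N18 at 30 cycles, which are the comparisons in which the gray bars are highest too.

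Few receptor genes moved alike with both antibodies. At 12 cycles Grid1 was lost with both (5.67% of all genes), and Gabrg3 and Gabra5 were gained with both (2.22%). At 30 cycles Grm7 was lost with both (0.338%) and Grm4 gained with both (4.24%). The loss of Grm7 with N18 rests on coverage of 58.4% that leaves out the gene start, and counted by transcription start no receptor gene was lost with N18 at 30 cycles. Whole chromosomes moved beside some of these genes. N18 domains of 12 cycles covered 2.01% of chromosome 14, which holds Grid1, in WT against 0% in KO, and 3A6 domains 4.17% against 1.46%. For chromosome 10, which holds Grin3b, the N18 values were 8.24% in WT and 0% in KO. Chromosome 16, the site of Grin2a, had 8.69% in WT against 36.5% in KO (N18) and 7.09% against 33.9% (3A6). Chromosome 7, the site of Gabrg3 and Gabra5, had 18.4% against 32% (N18) and 23.3% against 28.2% (3A6). At 30 cycles chromosome 6, the site of Grm7, had 8.61% in WT against 11.5% in KO (N18) and 30.5% against 9.71% (3A6), and chromosome 17, the site of Grm4, 10.6% against 24.9% (N18) and 22.3% against 14.9% (3A6). The part of these chromosome-wide values in the gene calls was not tested.

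The 2 lamin A/C antibodies differed in the receptor genes they held. In WT at 12 cycles 9 genes were inside domains of both (17.8% of all genes), Grm2, Grin3b and Grm6 with N18 alone (9.6%) and Grin2a with 3A6 alone (3.26%). In WT at 30 cycles Grm7, Grin2b and Grid1 were shared (1.56%), Grik3 and Grin2a were held by N18 alone (4.33%), and 11 genes, 8 of them GABA-A, by 3A6 alone (7.84%). KO cells at 12 cycles had 5 shared genes (7.71%), 7 of N18 alone (15.4%) and none of 3A6 alone (2.99%). After 30 cycles of sonication KO cells had 4 shared genes (7.25%), 9 of N18 alone, NMDA, kainate, metabotropic genes and Gabrd (21.3%), and 10 of 3A6 alone, mostly GABA-A (5.34%).

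The receptor genes held by lamin A/C in WT differed between the 12- and 30-cycle libraries. With 3A6, 8 genes were inside at 12 cycles alone (20.1% of all genes), all of them NMDA, kainate or metabotropic (Grin1, Grin2a, Grin2c, Grin2d, Grik3, Grik4, Grik5 and Grm4). Another 12 were inside at 30 cycles alone (8.39%), 8 GABA-A and 4 metabotropic genes, and Grin2b and Grid1 at both (1.01%). N18 in WT held 9 at 12 cycles alone (24.2%), 2 at 30 cycles alone (2.71%) and 3 at both (3.18%). Its domains summed to 404 Mb at 12 cycles and 239 Mb at 30 cycles. In KO 10 genes were inside N18 domains at both sonications (16.3%), 2 at 12 cycles alone (6.84%) and 3 at 30 cycles alone (12.2%). For 3A6 in KO 4 were inside at both (5.24%), 1 at 12 cycles alone (5.47%) and 10 at 30 cycles alone (7.35%).

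LAP2alpha kept 9 genes at both sonications (20.2% of all genes), with 4 at 12 cycles alone (15.7%) and 3 at 30 cycles alone (12.1%). Lamin B1, whose libraries shared a lane, held 13 at both (7.18%), added Grin3a, Grm3, Grm5, Grik1 and Grik2 at 30 cycles (9.58%) and held no gene at 12 cycles alone (0.599%). Lamin B1 domains summed to 446 Mb at 12 cycles and 954 Mb at 30 cycles.

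The lamin A/C libraries were also set against the reference domains. Of the receptor genes inside 12-cycle N18 WT domains 91.7% were inside LAP2alpha domains of 12 cycles (92.6% of all genes in N18 WT). Of those inside 12-cycle 3A6 WT domains it was 90% (92.5%). Taken the other way, N18 WT domains of 12 cycles held 84.6% of the receptor genes of the 12-cycle LAP2alpha domains (70.7% of all genes there). The 3A6 WT domains of 12 cycles held 69.2% (54.3%). Of the 14 genes inside 3A6 WT domains at 30 cycles 92.9% were inside lamin B1 domains of that sonication (93.8%), and of the 14 in 3A6 KO 78.6% (43.6%), which were 72.2% (52.6%) and 61.1% (32.8%) of the genes in lamin B1 domains. With N18 KO at 30 cycles 12 of 13 genes, 92.3%, were inside LAP2alpha domains of 12 cycles (82.1%), and these were 92.3% of the LAP2alpha genes (65.2%).

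SICER islands gave a sparser picture. At least 10% of the length lay in islands for 6 of the 32 genes with LAP2alpha at 12 cycles (25.3% of all genes) and 5 at 30 cycles (16.9%), and for 4 and 5 with lamin B1 (8.11% and 7.49%). The N18 libraries of 12 cycles had 3 in WT (23.8%) against 5 in KO (22.1%), and those of 30 cycles 7 (13.2%) against 8 (21.1%). For 3A6 the numbers were 5 (20%) against 5 (11.6%) after 12 cycles and 5 (7.44%) against 2 (7.74%) after 30. No island was found in 16 of the 32 genes in any library (42% of all genes, 28.1% of those of at least 100 kb), among them 8 of the 9 GABA-A genes and all 5 genes of chromosome 7, where islands covered no more than 0.0702% of the chromosome in any library. Chromosomes 5 and 11 hold the other GABA-A genes without islands. At 12 and 30 cycles lamin B1 islands covered 0.522% and 0.821% of chromosome 5 and 2.16% and 2.37% of chromosome 11. They covered 26.5% and 32% of chromosome 6. LAP2alpha islands covered 4.82% and 6.33% of chromosome 5 and 11.7% and 16.7% of chromosome 11. The part of these chromosome-wide values in the gene counts was not tested.

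Grin2b, Grm8 and Grid1 held islands in all 12 libraries. Grin2b had the highest coverage of the 3 in every library, from 42% in 3A6 KO to 90.5% in N18 WT at 30 cycles, against 7.67% to 32% for its chromosome 6. Grm8 ranged from 0.602% in LAP2alpha to 78.7% with lamin B1 at 30 cycles, and Grm7 on the same chromosome from 0% to 70.6%. Many genes inside EDD domains held no island. Any island was found in 4 of 13 with LAP2alpha at 12 cycles (38.7% of all genes inside) and 4 of 18 with lamin B1 at 30 cycles (25.9%). With 3A6 KO at 30 cycles it was 2 of 14 (16.3%), and with N18 WT at 30 cycles 3 of 5 (29%). Grin1, Grin2c, Grin2d and Grik5, lost from 3A6 domains at 12 cycles, had 0% in 3A6 islands of both genotypes there. At Grm4 the callers parted too. Islands covered 81.3% with N18 WT and 61.5% with N18 KO at 12 cycles, 65.6% with 3A6 WT and 30.7% with 3A6 KO at 12 cycles, 97.5% with N18 WT and 88.3% with N18 KO at 30 cycles, and 0% with 3A6 in both genotypes at 30 cycles. The gain of Grm4 in 30-cycle EDD domains therefore had no counterpart in islands with either antibody, while its loss with 3A6 at 12 cycles had a decrease. Over the whole of chromosome 17, 3A6 islands at 12 cycles covered 25.9% in WT and 10% in KO.

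Other genes of the glutamate and GABA synapse, taken from a list of 51 auxiliary subunits, scaffolds, transporters, enzymes and GABA-B or GABA-rho receptors, had another distribution. LAP2alpha at 12 cycles held 27 of the 51, or 52.9% (35.9% of all genes), lamin B1 at 30 cycles 9, or 17.6% (16.8%), and lamin B1 at 12 cycles 2, or 3.92% (7.78%). Their median length was 67.8 kb and their median G+C content 46.6%. Between genotypes 10 were lost (15.4% of all genes) and 2 gained (5%) with 3A6 at 12 cycles, and 5 lost (11.9%) and 2 gained (7.64%) with N18. At 30 cycles 2 were lost (1.76%) and 10 gained (24.4%) with N18, and 3 lost (5.75%) and 5 gained (8.94%) with 3A6. Cacng3, an auxiliary subunit that traffics AMPA receptors, was inside in 10 of 12 libraries and lay outside in lamin B1 at 12 cycles and 3A6 WT at 30 cycles. Shisa6 and Shisa9, which encode other proteins that attach to AMPA receptors, were inside in 9 libraries each. Gabbr2, a subunit of the GABA-B receptor, and Slc32a1, the vesicular transporter of GABA, were inside in 8 libraries each and in lamin B1 domains in neither. Of 16 genes that dermal fibroblasts are known to express, 3 were inside in LAP2alpha at each sonication (18.8%, against 35.9% and 32.3% of all genes) and none with lamin B1 (7.78% and 16.8%), and the region lists hold no expression by which the cell type could be checked.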

How the data were processed

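Per the submitters' processing notes and the study's methods, adapters were clipped (cutadapt), reads were mapped to mm9 (Bowtie2 2.1.0), duplicates were taken out and read numbers of ChIP and input made alike (Picard), and the authors called regions against the input of the same genotype and sonication. The deposited EDD domains (bins of 11 kb, gap penalty 5, false discovery rate 0.1) carry a score for each domain, and the deposited SICER 1.1 islands (windows of 1000 bp, gap 3000 bp, false discovery rate 0.01) carry counts of reads per island. Inputs (4 samples) and histone marks (8 samples) are not analysed here, and region lists cannot show the Tmpo deletion.

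Coverage was the percent of a gene's length inside regions, computed in Python 3.11.15 with numpy 2.4.6 and checked against bedtools 2.31.1 on simulated regions. Genes were the longest record per symbol of GENCODE vM1 on chromosomes 1 to 19 and X, and sequences came from the mm9 reference, whose 20 chromosomes held all regions. Members and lists (auxiliary subunits, scaffolds, synthesis and transport, GABA-B and GABA-rho receptors, fibroblast genes) were chosen with earlier results of these data known. Values of all libraries are given for genes inside in at least 9 libraries or in none, changed in KO with both antibodies, or changed in opposite directions. With 1 library per group no test was made. Alternatives were the transcription start, any overlap of 1 bp, domains or islands above the median score or read count, and genes of at least 100 kb as background.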

Additional observations from a re-analysis of the deposited data

Results flagged for a closer look

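A pair of receptor genes moved in opposite directions between genotypes at the 2 sonications with the same antibody. Coverage of Grin3b by N18 domains differed by -100 percentage points (KO minus WT) at 12 cycles and by 100 at 30 cycles. Islands of N18 covered 0% of Grin3b in both genotypes at both sonications. Coverage of Grm4 by 3A6 domains differed by -100 percentage points at 12 cycles and by 100 at 30 cycles. The 30-cycle KO domain of 3A6 over Grm4 spanned only 0.253 Mb with 1 gene inside. Islands of 3A6 covered 0% of Grm4 in both genotypes at 30 cycles. Each value is from 1 library per genotype, the difference was not tested, and the 2 sonications came from different flow cells. Domains of N18 covered 8.24% of chromosome 10, which holds Grin3b, in WT and 0% in KO at 12 cycles, and 1.15% and 9.76% at 30 cycles. Domains of 3A6 covered 13.8% of chromosome 17, which holds Grm4, in WT and 8.65% in KO at 12 cycles, and 22.3% and 14.9% at 30 cycles.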

How the results depend on the processing

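No paired analysis was possible because each group held 1 library, and for the same reason no replicate could be left out. Counting genes by their transcription start kept 28 of 32 counts within 1.5 times of the value given, any overlap of 1 bp kept 30 and domains above the median score 25. With the transcription start, the counts became 0 for genes lost with N18 at 30 cycles, 0 for LAP2alpha and 0 for N18 WT at 30 cycles alone, and 2 for 3A6 KO at 12 cycles alone. With any overlap the last became 2 and N18 WT at 30 cycles alone 1. With the higher-scoring domains N18 KO at 12 cycles held 7, and the counts were 1 for LAP2alpha, 4 for N18 WT and 5 for N18 KO at 30 cycles alone, and for 12 cycles alone 0 with N18 KO, 2 with 3A6 KO and 1 with lamin B1. For islands any overlap kept 8 of 12 counts, and gave 7 genes for N18 WT, 8 for N18 KO and 10 for 3A6 WT at 12 cycles and 5 for 3A6 KO at 30 cycles. Islands above the median read count kept 7 of 12, and gave 3 for LAP2alpha, 3A6 WT and 3A6 KO at 12 cycles, 3 for N18 KO and 1 for 3A6 KO at 30 cycles. Several of these counts are of 5 genes or fewer, where 1 or 2 genes move them past that limit. How far read number limited the calling of islands was not tested, and EDD bins of 11 kb limit every edge inside a gene.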
